A study of Mus musculus with 3 samples.

Results

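The proteasome genes were examined in outgrowths of mouse mammary hyperplasia at an early and a late stage. They were taken as every gene whose symbol in the array annotation starts with Psm, a letter from a to g and a digit, which gave 41 genes of 15056 with a named row, carried by 63 rows of the value table. Of these, 39 encode subunits, regulators or assembly chaperones of the proteasome. The other 2, Psmc3ip, a meiotic recombination factor, and Psme3ip1, a partner of the nuclear activator subunit Psme3, are not subunits and were kept apart. Of 48 genes listed for the complex, 9 had no named row: Psma8, Psmb1, Psmb4, Psmb6, Psmc3, Psmd1, Psmd14, Psmf1 and Psmg4.

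The donors, in puberty, came from a cross of MMTV-PyMT with B-actin-GFP mice. In the first transgene the polyoma middle T oncogene is driven by the mouse mammary tumour virus promoter, which is active mainly in mammary epithelium, and in the second GFP is driven by the beta-actin promoter. One hyperplasia at a time was transplanted into a syngeneic host, and the outgrowth was collected after 5 weeks, as an adenoma, or after 18 weeks, as a late carcinoma. Total RNA of an adenoma, labelled Cy5, was hybridised with total RNA of a late carcinoma, labelled Cy3, on each of 3 arrays, with the same dye orientation throughout, so that stage and dye cannot be told apart. All samples share the transgenes and the transplantation, and no normal gland or host without the transplant is compared here. Whether separate outgrowths were used for each array is not stated in the labels, and the p-values then measure the spread of the arrays alone, possibly a technical one. The RNA came from whole outgrowths, in which fewer cells of a type and less RNA per cell cannot be told apart.

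Values are log2 ratios, read as adenoma over late carcinoma. A value above 0 is therefore likely higher in the adenoma, a reading that rests on the dyes in the labels and on convention. Each direction given here would be the opposite had the authors divided late carcinoma by adenoma. The ratios show differences and not levels, so the presence of a transcript could not be checked. For the same reason the mammary markers (Krt8, Krt18, Krt19, Epcam, Cdh1, Krt5 and Krt14) could be read only as differences. Of these 7 genes, Cdh1 passed the threshold given below above 0 and Krt19 below 0, beside 15.9% and 9.21% of all genes and probes.

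The proteasome is the barrel-shaped protease that degrades proteins tagged with ubiquitin. Its 20S core is a stack of rings of alpha subunits, which form the gate, and beta subunits, some of which hold the active sites. The 19S cap recognises ubiquitin chains, removes them and unfolds the substrate with a ring of ATPases. Interferon exchanges the constitutive active-site subunits Psmb5, Psmb6 and Psmb7 for the immunoproteasome subunits Psmb8, Psmb9 and Psmb10, and raises the PA28 cap made of Psme1 and Psme2, which changes the peptides available to MHC class I molecules. When proteasomes are inhibited, the transcription factor Nfe2l1 raises the subunit genes together.

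Upstream sequences are shown for 4 genes on which the results turn: Psma3, the highest of the 41, Psmb11 and Psmb10, the lowest, and Psmb5, the constitutive counterpart of Psmb8 and the genomic neighbour of Psmb11. Each is the 250 bases before the annotated start, from RefSeq on build GRCm38.p6, where 36 of the 41 genes had an entry. Psma3 lies at chr12:70974373-70974622 on the plus strand, Psmb10 at chr8:105938393-105938642 on the minus strand, Psmb11 at chr14:54625060-54625309 on the plus strand and Psmb5 at chr14:54617996-54618245 on the minus strand. Capitals mark matches on either strand to the antioxidant response core TGACNNNGC, to which Nfe2l1 and Nfe2l2 bind, to GAAANNGAA, the core of the interferon-stimulated response element, or to the CCAAT box.
Psma3: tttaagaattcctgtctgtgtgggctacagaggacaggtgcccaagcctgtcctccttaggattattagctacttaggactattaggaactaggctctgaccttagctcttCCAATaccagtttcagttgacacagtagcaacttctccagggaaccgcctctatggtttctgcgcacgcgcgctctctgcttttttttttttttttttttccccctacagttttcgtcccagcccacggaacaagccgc
Psmb10: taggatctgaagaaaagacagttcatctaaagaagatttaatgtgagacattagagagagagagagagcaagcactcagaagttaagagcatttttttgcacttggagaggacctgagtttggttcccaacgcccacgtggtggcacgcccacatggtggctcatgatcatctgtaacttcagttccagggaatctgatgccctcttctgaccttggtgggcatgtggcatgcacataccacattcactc
Psmb11: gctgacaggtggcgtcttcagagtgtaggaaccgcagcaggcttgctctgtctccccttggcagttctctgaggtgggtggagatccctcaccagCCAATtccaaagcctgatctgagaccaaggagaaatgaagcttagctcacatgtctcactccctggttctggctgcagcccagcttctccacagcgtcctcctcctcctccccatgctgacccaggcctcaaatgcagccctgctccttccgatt
Psmb5: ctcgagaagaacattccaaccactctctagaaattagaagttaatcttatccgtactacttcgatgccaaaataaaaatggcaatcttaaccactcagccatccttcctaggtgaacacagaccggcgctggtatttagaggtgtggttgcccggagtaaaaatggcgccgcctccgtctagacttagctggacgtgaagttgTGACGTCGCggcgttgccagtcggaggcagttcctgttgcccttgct
The Psmb5 window held TGACNNNGC starting 47 bases before the start of the gene. Psma3 and Psmb11 each held CCAAT, at 139 and 155 bases, and the Psmb10 window held none of the motifs. Over the 40 promoters of the proteasome genes, TGACNNNGC was found in 4 (Psmb5, Psmc6, Psmd9 and Psmd12), or 10%, against 10.2% of all 32851 promoters of the same length. GAAANNGAA was found in 3 (Psmb3, Psmd4 and Psmd9), or 7.5% against 7.13%, and CCAAT in 37.5% against 33.8%. No matches overlapped in the windows shown. A match is a description of the letters and not of binding.

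Each proteasome gene was tested for a difference between the stages. By limma's moderated test, adjusted by Benjamini-Hochberg over all 31058 genes and unnamed probes at a threshold of 0.05, 7 of the 41 genes passed, or 17.1%, while 25.1% of all genes and probes passed. Above 0 were Psma3, Psmd5 and Psmd7, 3 of 41, against a background of 15.9%. Below 0 were Psmb11, Psmb10, Psmd3 and Psme3ip1, 4 of 41, against 9.21%. Below 0 the share of members was near that background. In either direction it was lower than in the table as a whole, a difference that was not tested. The members' median was -0.12, and 28 of 41 means lay below 0, beside a median of -0.019 and 52.4% below 0 over all genes and probes. The same sign on 3 of 3 arrays was seen for 19 of 41 members, or 46.3%, against 60.6% of all genes and probes. An unadjusted p under 0.05 (limma) was found for 11 of 41 members, while 40.4% of all genes and probes had one. Such a p, where given below for a single gene, is therefore common in this table.

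**Figure D1:**
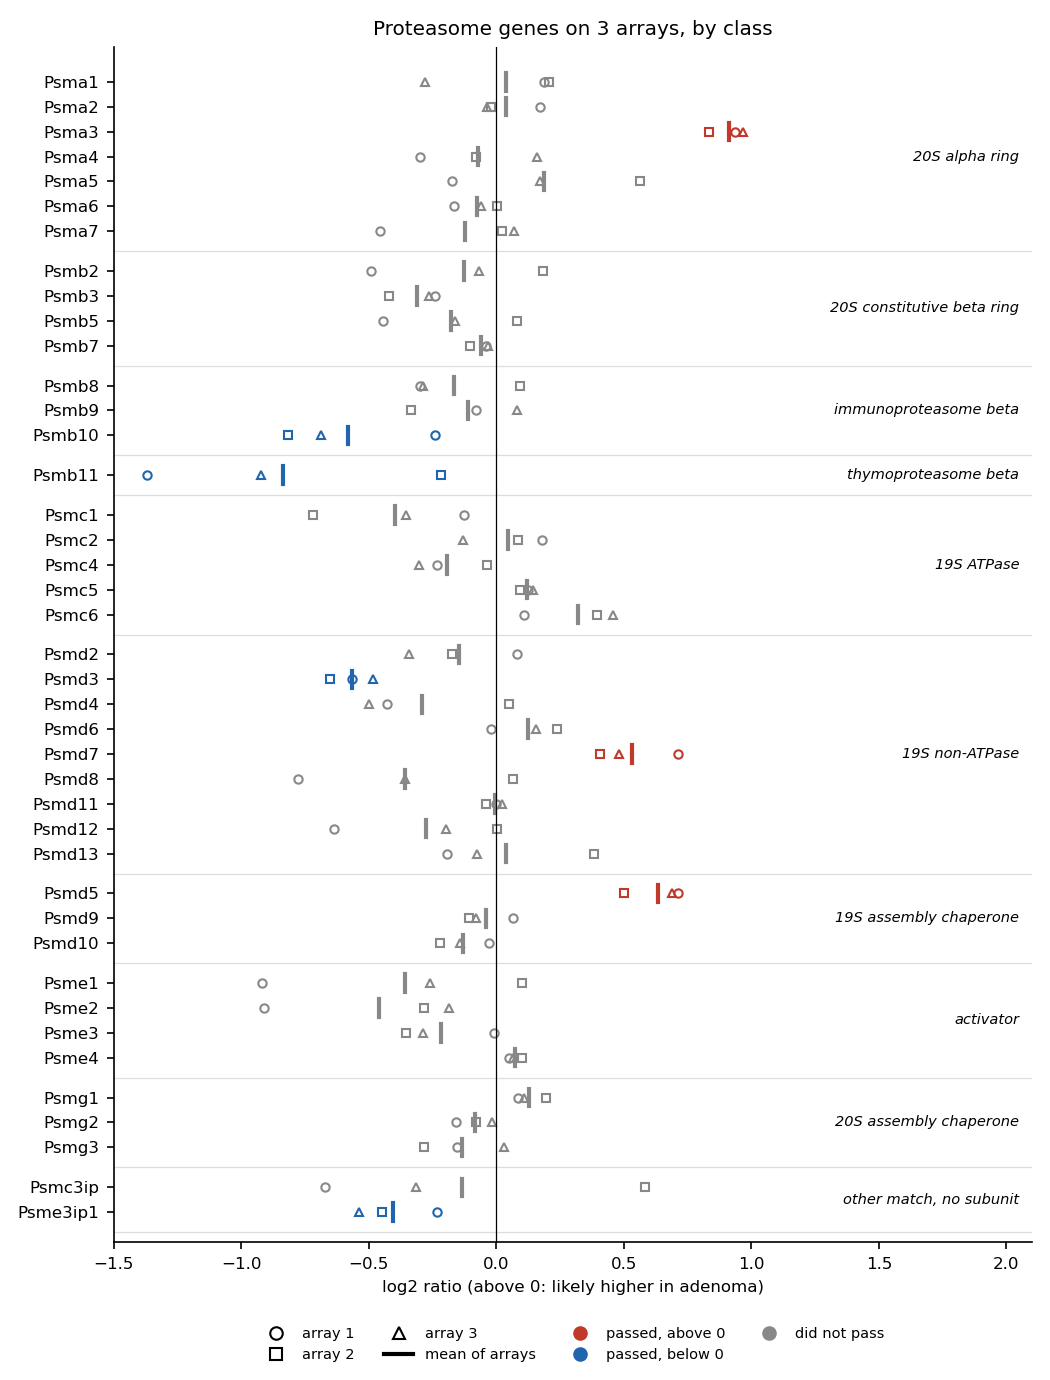
Log2 ratio of each of the 41 genes (x axis) on each of the 3 arrays (circle, square and triangle), with the mean as a bar, grouped by class. Psma3 stands alone on the right, and most classes are spread about 0.

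In the alpha ring, Psma3, a subunit of the gated outer ring, passed above 0, and no other measured subunit of its ring passed. Its log2 ratios were 0.934, 0.833 and 0.966 on arrays 1, 2 and 3, so the arrays lay close together and far from 0. The mean was 0.91 ± 0.069 (SD, n = 3), a 1.88-fold ratio (limma adjusted p = 0.0117). The other 6 alpha subunits measured, Psma1, Psma2, Psma4, Psma5, Psma6 and Psma7, had means from -0.12 (Psma7) to 0.19 (Psma5), 3 of them above 0. Psma5, the highest of these, had -0.176, 0.562 and 0.170, with arrays on both sides of 0. The class had a median of 0.037.

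Psma3 was measured by 3 rows, and each passed above 0 in the fit over single rows (limma), where 26% of rows passed in either direction. The rows had means of 0.71 ± 0.18, 1.05 ± 0.16 and 0.97 ± 0.17 (SD, n = 3), with limma adjusted p from 0.00963 to 0.0107. The lowest single value among them was 0.501, on array 1. Psma3 was the one gene with several rows in which every row passed.

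Of the constitutive beta ring, Psmb2, Psmb3, Psmb5 and Psmb7 were measured, and 0 of 4 passed, with 1 at an unadjusted p under 0.05 (Psmb3, limma). All 4 means lay below 0, with a class median of -0.15. Psmb3, a beta subunit without an active site, had -0.242, -0.423 and -0.266, a mean of -0.31 ± 0.098 (limma adjusted p = 0.0709). Of its rows, 1 passed below 0 (mean -0.40 ± 0.047, limma adjusted p = 0.0351), and the other had -0.22 ± 0.24. Psmb5, which carries the chymotrypsin-like site, had -0.446, 0.080 and -0.164, a mean of -0.18 ± 0.26, with array 2 on the other side of 0. Psmb7, which carries the trypsin-like site, had -0.041, -0.103 and -0.035, a mean of -0.059 ± 0.038. Its rows lay on both sides of 0, with means of 0.14 and -0.25.

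Of the immunoproteasome subunits, Psmb10 was lower in the adenoma, and Psmb8 and Psmb9 did not pass. Psmb10, which replaces Psmb7, had -0.242, -0.817 and -0.687, all below 0, with array 1 nearest to 0. The mean was -0.58 ± 0.30 (limma adjusted p = 0.0273), or 1.5-fold higher in the late carcinoma. Its rows differed in size, with means of -0.94 ± 0.41 and -0.23 ± 0.33, and only the first passed. Without array 2 the gene had -0.46 and did not pass (limma adjusted p = 0.0717).

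Psmb8, which replaces Psmb5, had -0.300, 0.091 and -0.287, a mean of -0.17 ± 0.22, with array 2 above 0. Of its 3 rows, 1 passed below 0 (mean -0.41 ± 0.16), and the others had -0.011 and -0.073. Psmb9, which replaces Psmb6, had -0.079, -0.337 and 0.080, a mean of -0.11 ± 0.21, with array 3 above 0.

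The exchange of subunits was compared within arrays, as the immunoproteasome subunit minus its constitutive counterpart, for the 2 pairs in which both were measured. Psmb10 minus Psmb7 was -0.201, -0.714 and -0.653, below 0 on 3 of 3 arrays. The mean difference was -0.52 ± 0.28, with a 95% interval from -1.22 to 0.17. Psmb8 minus Psmb5 was 0.146, 0.011 and -0.123, a mean of 0.011 ± 0.13 with an interval from -0.32 to 0.35. In the exact two-sided sign-flip permutation test over arrays, p was 0.25 and 0.75, or 0.50 and 0.75 adjusted over the 2 pairs. With 3 arrays this test cannot go below 0.25.

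Psmb11, the catalytic subunit of the thymoproteasome, known from cortical epithelial cells of the thymus, had the lowest mean of the 41 genes. Its values were -1.369, -0.217 and -0.922, all below 0 with array 2 far from the others. The mean was -0.84 ± 0.58 (limma adjusted p = 0.0316), from 1 row. In the annotation no coding gene lies between Psmb11 and Psmb5, whose mean of -0.18 did not pass. No signal intensity was used here, so whether Psmb11 RNA was above background was not tested.

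Among the 19S ATPases, which form the unfolding ring, 0 of 5 measured genes passed in limma, and 2, Psmc1 and Psmc6, had an unadjusted p under 0.05, in opposite directions. Psmc1 had -0.126, -0.719 and -0.353, a mean of -0.40 ± 0.30 (limma adjusted p = 0.0761). Psmc6 had 0.109, 0.396 and 0.457, a mean of 0.32 ± 0.19 (limma adjusted p = 0.0858). Without array 1 both passed, Psmc1 at -0.54 (limma adjusted p = 0.0291) and Psmc6 at 0.43 (0.0410), and without array 2 they had -0.24 and 0.28 and did not pass. The rows of Psmc6 had means of 0.090 and 0.55, and only the second passed. Psmc2, Psmc4 and Psmc5 had means of 0.044, -0.19 and 0.12.

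Of 9 non-ATPase subunits of the 19S cap, Psmd7 passed above 0 and Psmd3 below 0. Psmd3, a scaffold subunit of the lid that cuts off ubiquitin chains, had -0.567, -0.653 and -0.484, close together and below 0. Its mean from 1 row was -0.57 ± 0.085 (limma adjusted p = 0.0144), or 1.48-fold higher in the late carcinoma. Psmd7, the lid subunit that pairs with the deubiquitinase Psmd14, had 0.711, 0.405 and 0.482, a mean of 0.53 ± 0.16 (limma adjusted p = 0.0195). That mean joined rows that disagreed: one had 0.012, 0.018 and -0.109, and the other 1.410, 0.791 and 1.072. Read by its first row alone, Psmd7 had -0.026 and did not pass.

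The remaining non-ATPase subunits did not pass. Psmd8, a lid subunit, had -0.779, 0.064 and -0.357, and the lid subunit Psmd12 had -0.637, 0.002 and -0.197, so in both array 1 was the lowest and array 2 near 0. Psmd4, a ubiquitin receptor, had -0.429, 0.050 and -0.501. The scaffold subunit Psmd2 had a mean of -0.15 ± 0.21, and the lid subunits Psmd6, Psmd11 and Psmd13 had 0.12, -0.0068 and 0.038. Psmd8 passed below 0 without array 2 (-0.57, limma adjusted p = 0.0325) and had -0.15 without array 1 (limma adjusted p = 0.480).

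Psmd5, Psmd9 and Psmd10 are named as 19S subunits but act as chaperones in the assembly of its base. Psmd5 passed above 0, with 0.711, 0.50 and 0.687 and a mean of 0.63 ± 0.12 (limma adjusted p = 0.0127), or 1.55-fold higher in the adenoma. As with Psmd7, 1 of its rows carried the difference, with a mean of 1.08 ± 0.36, while the other had 0.19 ± 0.15 and did not pass. Psmd9 had -0.040 and Psmd10, also called gankyrin, had -0.13, each from 3 rows on both sides of 0. The chaperones of the 20S core, Psmg1, Psmg2 and Psmg3, had means of 0.13, -0.085 and -0.14, and 0 of 3 passed (limma) or had an unadjusted p under 0.05.

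The activator caps did not pass, 0 of 4 in limma, with Psme2 at an unadjusted p under 0.05. Psme1 and Psme2, which form the interferon-raised PA28 cap, had their lowest value on the same array. Psme1 had -0.920, 0.099 and -0.261, a mean of -0.36 ± 0.52, and Psme2 had -0.912, -0.286 and -0.186, a mean of -0.46 ± 0.39 (limma adjusted p = 0.0772). Psme1 passed below 0 without array 2 (-0.59, limma adjusted p = 0.0434), and without array 1 Psme1 had -0.081 (limma adjusted p = 0.696) and Psme2 -0.24. Psme3, the nuclear PA28 subunit, had -0.22 ± 0.18, and Psme4, the cap protein PA200, had 0.071 ± 0.026. The rows of Psme4 lay on both sides of 0, with means of 0.32 and -0.17, so that small SD belongs to an average of rows that disagreed. The rows of Psme1 had means of -0.087 and -0.63.

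Both matches that are not subunits, Psme3ip1 and Psmc3ip, had means below 0. Psme3ip1 had -0.233, -0.447 and -0.539, a mean of -0.41 ± 0.16 (limma adjusted p = 0.0407), and did not pass without array 2 (-0.39, 0.109). Psmc3ip had -0.673, 0.584 and -0.316, which is the widest spread of the 41 genes. Without both, 3 of 39 genes passed above 0 and 3 below 0, or 15.4%.

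Disagreement between rows of a gene touched several of these results. Of 18 members with more than 1 row, 8 had row means on both sides of 0, or 44.4%, against 52.9% of the 5138 named genes with several rows. The widest ranges belonged to Psmd7 (1.12), Psmd5 (0.89) and Psmb10 (0.71), 3 of the 4 called genes with several rows. Psma3 had a range of 0.34. The median range was 0.35 for the members and 0.40 for all such genes. The rows of a gene carry the same transcript accession in the annotation, and which stretch each row detects was not analysed here.

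**Figure D2:**
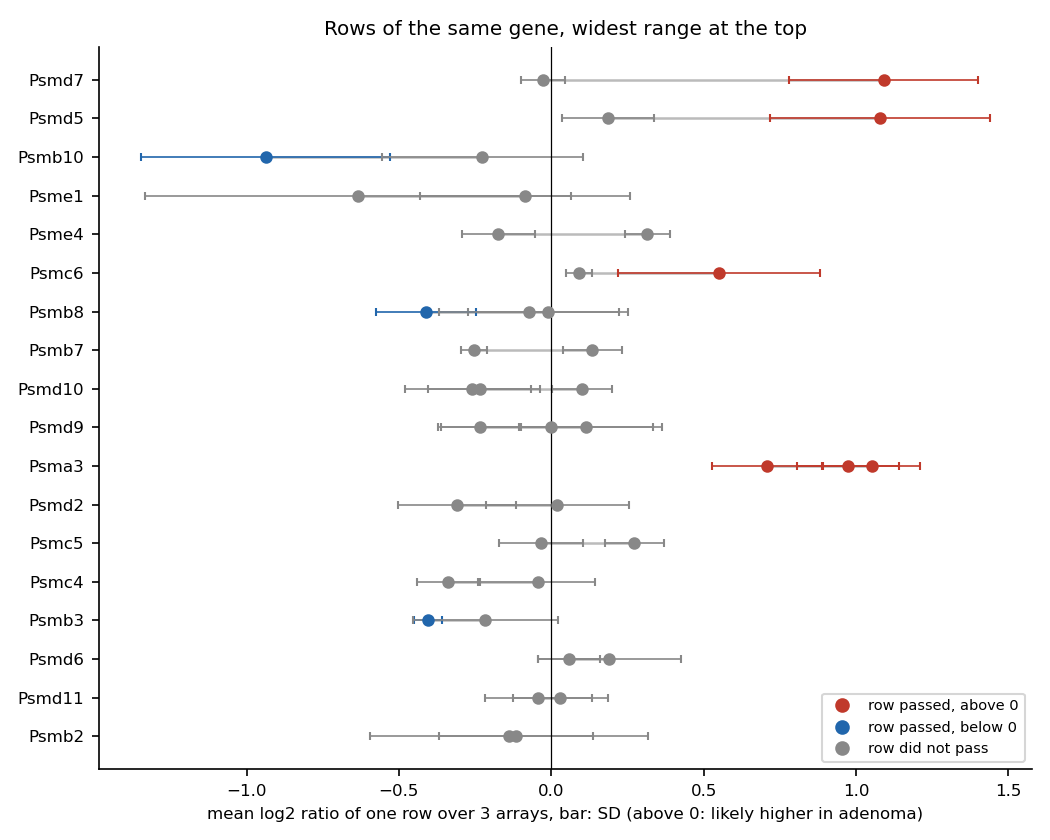
Mean log2 ratio of each row over 3 arrays (x axis, bars are the SD) for the 18 genes with more than 1 row, ordered by range. The rows of Psmd7 and Psmd5 lie near 0 and near 1.1, while the 3 rows of Psma3 all lie above 0.7.

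The ratios of the members were set beside those of the 979 olfactory and vomeronasal receptor genes, whose products detect odours and pheromones, and which had a median of 0.34 and a range from -0.88 to 1.33. All 41 members lay inside that range, as did most of all genes and probes, so this does not set the members apart. Of the receptor genes, 426 passed above 0 and 26 below 0 (limma), or 46.2%, against 25.1% of all genes and probes. A mean at least as high as that of Psma3 was found for 95 receptor genes, one at or below that of Psmb11 for 1, and one at or below that of Psmd3 for 8. Centred on these genes, 1 member passed above 0 (Psma3) and 28 below 0, beside 7.33% and 54.3% of all genes and probes. Psma3 (0.56) kept its call under that centring, and Psmd5 (0.28) and Psmd7 (0.18) did not.

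**Figure D3:**
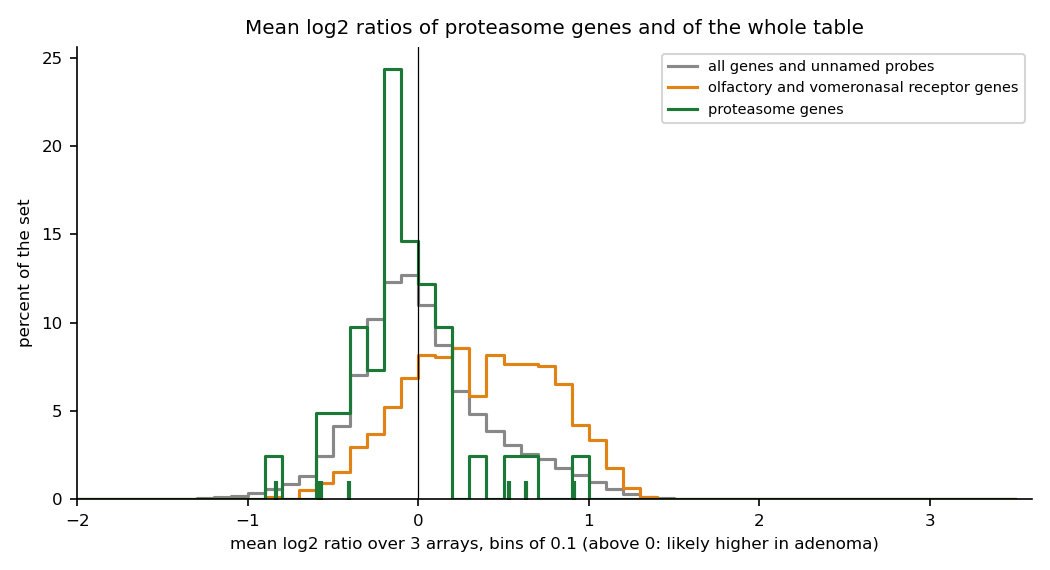
Share of each set (y axis, percent) by mean log2 ratio in bins of 0.1 (x axis) for all genes and probes, the 979 receptor genes and the 41 proteasome genes, with ticks at the 7 genes that passed. The highest bin of the proteasome genes, with 24.4% of them, runs from -0.2 to -0.1, and the receptor genes lie further to the right.

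Pearson's r over the 41 genes was 0.353 for arrays 1 and 2. Arrays 1 and 3 gave 0.728, and arrays 2 and 3 gave 0.656. Over all genes and probes the values, in the same order, were 0.61, 0.744 and 0.711. Without Psma3, Psmd5 and Psmd7 the values over 38 genes, in the same order, were 0.0676, 0.538 and 0.501. The genes left out are the members that passed above 0 on these same arrays, so lower values are likely from that choice alone. All values of r are descriptions across genes, which are not independent replicates and share the arrays. The median SD over arrays was 0.18 for the members and 0.19 for all genes and probes.

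Genes that feed or regulate the proteasome were read from a list of 35, of which 25 were measured. Of these, 4 passed above 0 and 4 below 0, beside 15.9% and 9.21% of all genes and probes, and the median was -0.032. Nfe2l1, the transcription factor of the subunit genes, had -0.857, -0.312 and -0.584, a mean of -0.58 ± 0.27 (limma adjusted p = 0.0238). Ngly1, the deglycosylating enzyme through which Nfe2l1 is activated, had 0.517, 0.715 and 0.516, a mean of 0.58 ± 0.11 (limma adjusted p = 0.0145). These genes of one activation route thus lay on opposite sides of 0, and Nfe2l2, the related factor, had 0.16 ± 0.11 and did not pass.

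Below 0 were also Vcp, the ATPase that extracts ubiquitinated proteins, with -0.58 ± 0.33 (limma adjusted p = 0.0300), and the chaperone Hspa8, with -0.99 ± 0.58 (0.0196). Sem1, a small lid subunit not named Psm, had -0.43 ± 0.24 (limma adjusted p = 0.0492). Above 0 were the shuttle factor Ubqln2 (0.48 ± 0.12, limma adjusted p = 0.0230), the proteasome-binding protein Zfand5 (0.49 ± 0.21, 0.0293) and the proteasome-bound thioredoxin-like protein Txnl1 (0.49 ± 0.25, 0.0357). The 20S assembly factor Pomp (-0.15 ± 0.21) and the proteasome deubiquitinases Uchl5 (0.10 ± 0.018) and Usp14 (-0.0047 ± 0.010) did not pass.

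Of 11 genes that work with the immunoproteasome in antigen processing, 9 were measured. By limma 2 passed below 0, beside 9.21% of all genes and probes, and none above 0, beside 15.9%. Ifngr2 had an unadjusted p under 0.05 (limma) above 0. Tap1, which carries peptides into the endoplasmic reticulum and adjoins Psmb9 in the annotation, had -0.498, -1.237 and -0.298, a mean of -0.68 ± 0.49 (limma adjusted p = 0.0410). B2m, which encodes the invariant chain of MHC class I, had -0.998, -0.353 and -0.491 over 75 rows, a mean of -0.61 ± 0.34 (limma adjusted p = 0.0278). On Tap1 and Psmb10 array 2 was the lowest, and on B2m, Psme1 and Psme2 array 1. Tap2, which adjoins Psmb8, had -0.093, Tapbp -0.095, Erap1 -0.20, Irf1 -0.16, Ifng -0.25, Ifngr1 0.047 and Ifngr2 0.30, and none of these passed.

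**Figure D4:**
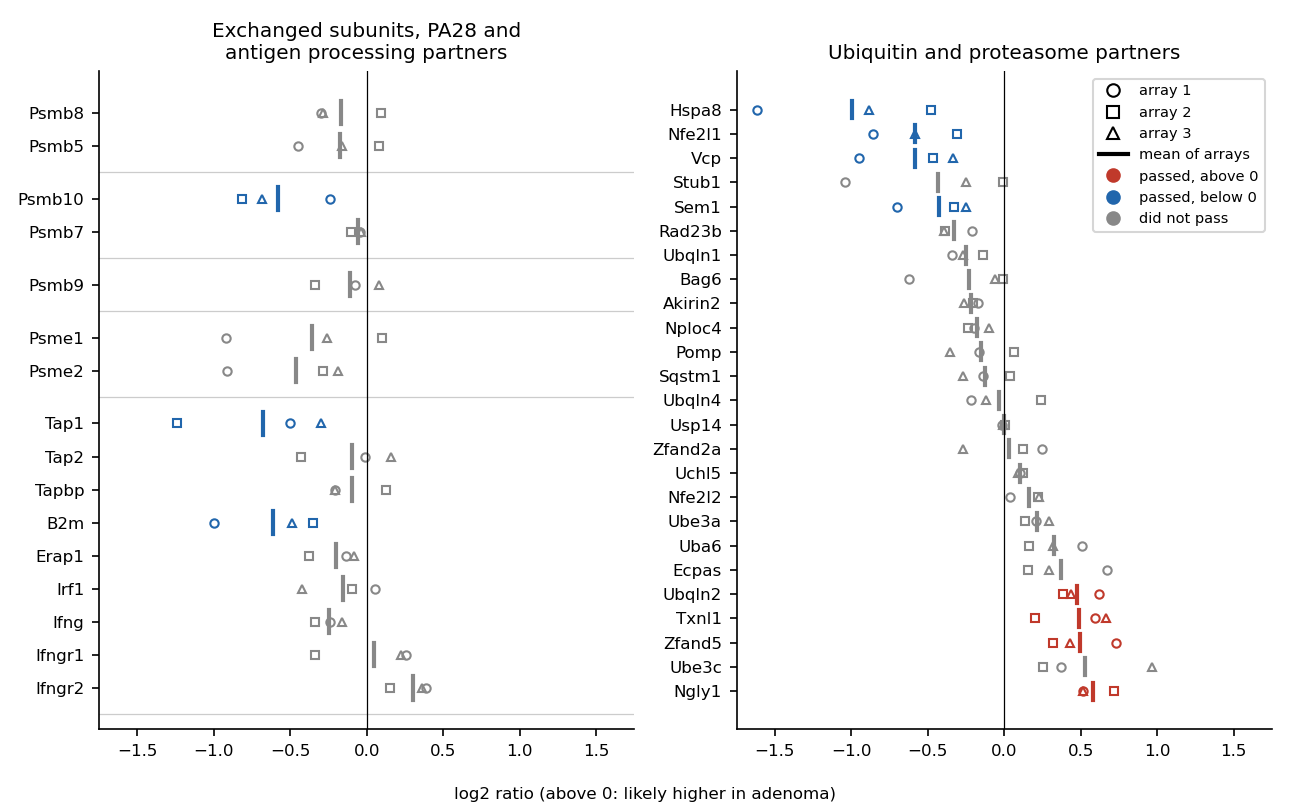
Log2 ratios on the 3 arrays (x axis) with the mean as a bar, for the exchanged subunits, the PA28 subunits and antigen processing genes (left) and for the 25 ubiquitin and proteasome partners (right). Psmb10, Tap1 and B2m pass below 0, and the partners at right pass 4 on each side.

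Leukocytes carry much immunoproteasome, and their markers were read beside Psmb8, Psmb9 and Psmb10. Of 21 markers 16 were measured, with means from -1.09 to 0.84 and a median of 0.082. Above 0, 3 passed (Cd3g, Gzmb and Adgre1), beside 15.9% of all genes and probes. Below 0, 2 passed (Cd2 and Itgam), beside 9.21%. Ptprc, the pan-leukocyte marker, had 0.32 ± 0.34 and did not pass. Of 5 fat cell markers 3 passed above 0, Fabp4 (3.49 ± 0.60), Lep (0.62 ± 0.11) and Adipoq (0.53 ± 0.30). Plin1 (0.028 ± 0.23) and Cidec (-0.28 ± 0.19) did not pass, and the median was 0.53. The part of leukocytes or fat cells in the proteasome ratios was not tested.

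Without array 3 the calls were lost. The means then rest on arrays 1 and 2, which also enter the means of 3 arrays, so a like size is partly given by that overlap. Psma3 had 0.88 in place of 0.91, Psmd5 0.61 in place of 0.63, Psmd7 0.56 in place of 0.53, Psmd3 -0.61 in place of -0.57, Psmb10 -0.53 in place of -0.58, Psmb11 -0.79 in place of -0.84 and Psme3ip1 -0.34 in place of -0.41. Without that array 0 of the 41 genes passed in limma and 7 had an unadjusted p under 0.05, while 1 of all 31058 genes and probes passed (0.00322%) and 25% had an unadjusted p under 0.05. Without array 1, 9 members passed, beside 23.6% of all genes and probes, and without array 2, 7 passed, beside 22.5%. Of the 7 genes called on 3 arrays, 7 passed without array 1 and 5 without array 2. The size of Psmb11 depended on the array left out, with -0.57 without array 1 and -1.15 without array 2.

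**Figure D5:**
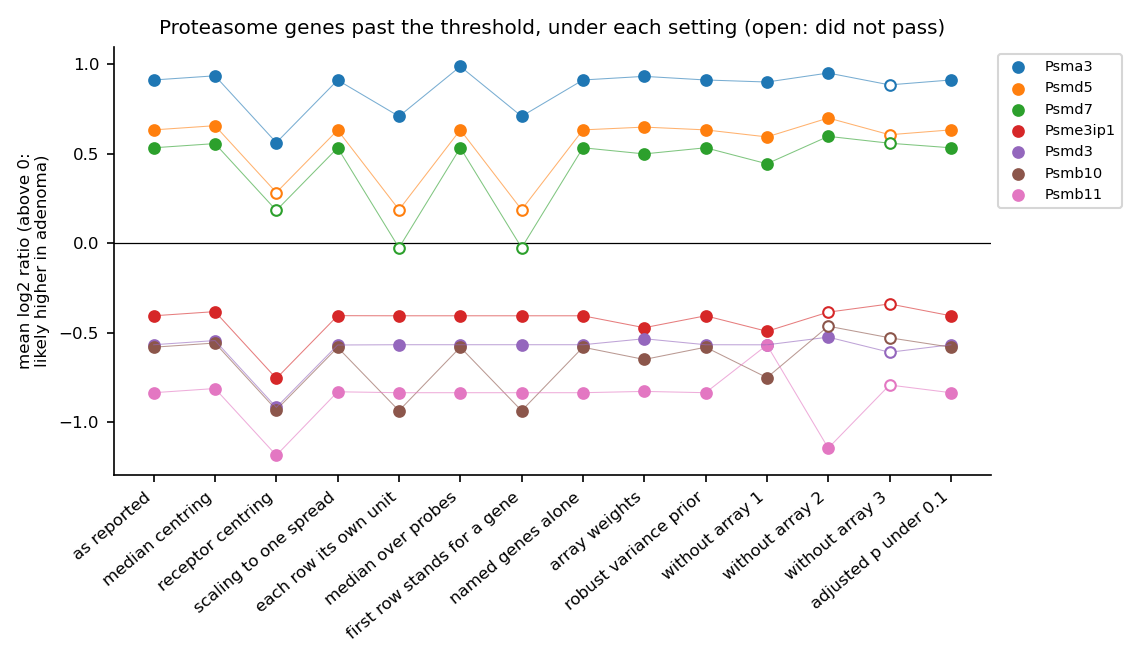
Mean log2 ratio (y axis) of the 7 genes that passed, under each processing alternative (x axis), with filled points where the gene passed and open points where it did not. All points are open without array 3, and Psmd5 and Psmd7 drop towards 0 where 1 row stands for a gene.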

How the data were processed

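The deposited value table holds log2 ratios of 3 two-colour arrays, a reading taken from the values, since neither the log base nor the numerator is stated; how the spots were filtered, corrected and normalized is not given in the sources used here. Its 38976 rows had 1 missing value, and array medians of -0.012, -0.025 and -0.033. Rows were named through the platform annotation (22973 with 1 gene symbol, 0 with several, 16003 with none), and a gene's rows were averaged within each array. The mean of each of 31058 genes and unnamed probes measured on 3 arrays was compared with 0 by a two-sided moderated test (lmFit and eBayes of limma 3.58.1, R 4.3.3), with a prior SD of 0.206 on 4.6 degrees of freedom. Arrays are numbered in accession order, and their number limits the precision.

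The members, classes and partner lists were chosen with earlier results of these data known. Every member was named, with partners past the threshold and, for antigen processing, each partner. Partners, markers and rows that did not pass and are named with values beyond that rule were chosen after their values were seen. Genes are called by the deposited annotation, and a reference of GRCm38.p6 was used for names, neighbours and promoters only. The interferon-stimulated element was searched by a core shortened after a longer form had been searched. Data with 31058 units were also simulated, with 50 changed at each size. There the fit recovered 2%, 80% and 100% of log2 changes of 0.5, 1 and 2, with 4 false calls. Far fewer units were changed there than passed in the data, where 25.1% of all genes and probes did. The Benjamini-Hochberg cut-off was therefore stricter in the simulation. For that reason the recovered shares cannot be read as the detection rate in the data. Alternatives were other centring, scaling, row handling, variance models and thresholds, and leaving out each array. Figures used matplotlib 3.10.9 in Python 3.11.15.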

Additional observations from a re-analysis of the deposited data

How the results depend on the processing

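The members' 3 calls above 0 and 4 below 0 were the same genes with median centring, scaling, the median over rows, named genes alone and a robust variance prior. Calls above 0 became 1 with receptor centring and 1 where the first row stood for a gene or each row was its own unit, the last 2 because Psmd7 and Psmd5 had their lower row first. There 5 members changed sign, among them Psmd7, which turned to -0.026, and Psmb3 joined the calls below 0, which became 5. Calls below 0 became 28 with receptor centring, which subtracts the receptor medians of 0.408, 0.277 and 0.365 from arrays 1, 2 and 3. Under that centring 10 members changed sign, and of these only Psma2 passed, at -0.31 (limma adjusted p = 0.0385). With array weights (the highest weight being 2.27, on array 3) the calls below 0 became 7, and at an adjusted p of 0.1 also 7. Both times Psmb3 was among them, and calls above 0 became 4, with Psmc6 added. All calls became 19138 with receptor centring, 12036 (38.8%) with array weights, 11376 (36.6%) at an adjusted p of 0.1 and 4274 with named genes alone, where fewer were tested. Leaving out each array gave 0 to 4 calls above 0, 0 to 5 below 0 and 1 to 7324 in all. On leaving out arrays, Psmb8 minus Psmb5 ranged from -0.056 (without array 1), turning its sign, to 0.079, and Psmb10 minus Psmb7 from -0.68 to -0.43. With the first row of each gene the differences were 0.17 and -1.07. Other causes were not tested. Each ratio already compares adenoma and late carcinoma within an array. No further pairing was possible because there is 1 group and the array numbers pair nothing.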
